A study of Saccharomyces cerevisiae with 24 samples.

Results

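The data are the mRNA profile of budding yeast in which RNAPII carries a shortened C-terminal domain (CTD) and the kinase gene *CDK8* is deleted. The comparison is of *rpb1-CTD11 cdk8Δ*, on 2 arrays, with a wild type labelled 330 rpm, called wild type 330 rpm here, also on 2 arrays. These 4 arrays were chosen by their labels from the 24 of the series, and all 6388 gene probes on them were used. Every strain is labelled BY4742, a haploid laboratory strain of mating type alpha, and was grown to mid-log phase in synthetic complete medium with glucose. *rpb1-CTD11 cdk8Δ* keeps 11 CTD repeats in Rpb1, made by a stop codon and a drug resistance marker placed at the *RPB1* locus, and lacks *CDK8*. Wild type 330 rpm carries neither change. Its label gives 330 rpm while the growth protocol of every sample gives 230 rpm. The paper's methods name *RPB1-CTDWT*, a strain with a full-length CTD, as the gene expression control. The paper's supplementary expression profiles instead set both double mutants against the arrays of wild type 330 rpm. Used beside them were *rpb1-CTD11*, which has the same truncation and keeps *CDK8*, *rpb1-CTD12 cdk8Δ*, which keeps 12 repeats and lacks *CDK8*, and a further wild type, with 2, 2 and 8 arrays. A strain with *CDK8* deleted and a full-length CTD was not analysed here, so that the effects of the deletion and of the truncation cannot be told apart against wild type 330 rpm alone. Which strain isolates went onto the arrays is not named.

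The CTD is a tail of repeated heptapeptides on Rpb1, the largest subunit of RNAPII, and its phosphorylation recruits factors at successive steps of transcription. Mediator carries signals from gene-specific activators and repressors to RNAPII. Cdk8, also called Srb10 or Ssn3, is the kinase of a detachable Mediator module that also holds the cyclin Ssn8, Srb8 and Ssn2. In yeast this module is known for repressing genes of stress, of alternative carbon sources and of cell type, and Cdk8 phosphorylates transcription factors such as Msn2, Gcn4 and Ste12, marking some of them for degradation. Msn2 and its paralog Msn4 switch on a broad stress program, Hap4 is the limiting subunit of the activator of respiratory genes, and Rpn4 activates proteasome genes.

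Each array carried the labelled RNA of 1 strain in one dye and a common wild type reference RNA in the other, so a level here is the log2 ratio of sample over reference. Each group had an a array, with the strain labelled in Cy3, and a b array, with the strain labelled in Cy5. A log2 fold change is the difference between the 2 groups in a limma fit of all 24 arrays, given with its standard error (SE), and its p value was adjusted by Benjamini-Hochberg over the 6388 probes. Genes are called increased or decreased where the adjusted p was under 0.01 with a fold change above 1.7 (0.766 on the log2 scale). These cutoffs are those of the study, whose text does not say whether its p values were adjusted. "Higher" and "lower" are used for a gene that passed the adjusted p alone. An exact two-sided permutation test of 2 arrays against 2 cannot go below p = 0.333, so the tests rest on the spread shared by all groups in the fit. Nothing states whether the a and b arrays came from separate cultures, so the p values measure only the spread between arrays, which may be technical.

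The arrays of *rpb1-CTD11 cdk8Δ* had a median sample signal of 314.1 (a) and 785.4 (b), and those of wild type 330 rpm 357.3 (a) and 737.8 (b). Between 97.4% and 98.3% of the probes passed the level of empty spots on each of the 4 arrays, and 0 to 315 gene spots an array were saturated. The 4 markers of alpha cells were above background on all 4 arrays, with summed signals of 13270 and 37980 in *rpb1-CTD11 cdk8Δ* against 24710 and 54120 in wild type 330 rpm. The 7 markers of the opposite mating type were dim, at 69.5 to 264 in the mutant and 74.7 to 317 in wild type 330 rpm. Of 8 genes of the mitochondrial genome, 7 were above background on both mutant arrays, against 5 on both arrays of wild type 330 rpm. Wild type 330 rpm itself differed little from the 8 other wild type arrays, with 7 genes increased (0.11% of probes) and 12 decreased (0.188%), and with 157 higher (2.46%) and 128 lower (2%) by the adjusted p alone.

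The 2 targeted genes were both low in the double mutant. *SSN3*, which encodes Cdk8, had log2 ratios of -1.60 and -1.75 in *rpb1-CTD11 cdk8Δ* and of -0.12 and 0.09 in wild type 330 rpm. Its probe was not above background on either mutant array, so the decrease is a bound of at least 2.9-fold lower, the higher group's mean set against the lowest measurable signal (log2 fold change -1.66 ± 0.07, adjusted p = 5.5e-12). *RPO21*, the *RPB1* gene, had -1.84 and -1.62 in the double mutant and 0.06 and 0.30 in wild type 330 rpm, a change of -1.91 ± 0.18 (adjusted p = 1.1e-07). *rpb1-CTD11*, with the same truncated allele, had -1.11 and -1.09, and the files do not say whether the probe lies in the altered end of the gene. The other members of the kinase module stayed near wild type 330 rpm. Their log2 fold changes were 0.24 ± 0.06 for *SSN8* (adjusted p = 0.0024), -0.05 ± 0.06 for *SRB8* (adjusted p = 0.58) and -0.15 ± 0.07 for *SSN2* (adjusted p = 0.11). Of the 12 RNAPII subunit genes *RPO21* alone was called, and none of the 21 core Mediator genes was. Over all probes 2.4% were increased and 1.28% decreased, so few calls in lists this short say little. By the adjusted p alone, 2 RNAPII subunit genes were higher and *RPO21* lower, and 1 core Mediator gene was lower. The medians of these lists were 0.00 and -0.04.

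In *rpb1-CTD11 cdk8Δ* 153 probes had increased mRNA levels (2.4%) and 82 had decreased levels (1.28%). Of these, 19 increased and 18 decreased probes had no gene name. Where genes called over the whole array are counted here, the counts are of probes. By the adjusted p alone, 972 probes were higher (15.2%) and 844 lower (13.2%). More than 2-fold changes were found for 95 increased and 46 decreased genes, and more than 4-fold changes for 19 and 4. All 153 increased and 82 decreased probes went the same way in the a pair and in the b pair of arrays. The calls were made on these same arrays, so this is no separate test. Over all probes the differences of the a pair and of the b pair correlated at 0.956. The median log2 fold change was 1.10 for the increased genes and -1.07 for the decreased genes, while that of all probes was 0.01. The scale mattered for these counts. Centred on the spiked-in control spots in place of loess, the median of all probes shifted to -0.23, with 82 genes increased and 177 decreased. The paper found no global change in mRNA with its spiked-in controls and scaled its profiles to total mRNA. Whether the shift here is a change in total mRNA was not tested, and changes are given here relative to the bulk of the mRNA. With the 8 other wild type arrays as control, 182 genes were increased (2.85%) and 101 decreased (1.58%), and 1572 (24.6%) and 1396 (21.9%) passed the adjusted p alone.

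**Figure D1:**
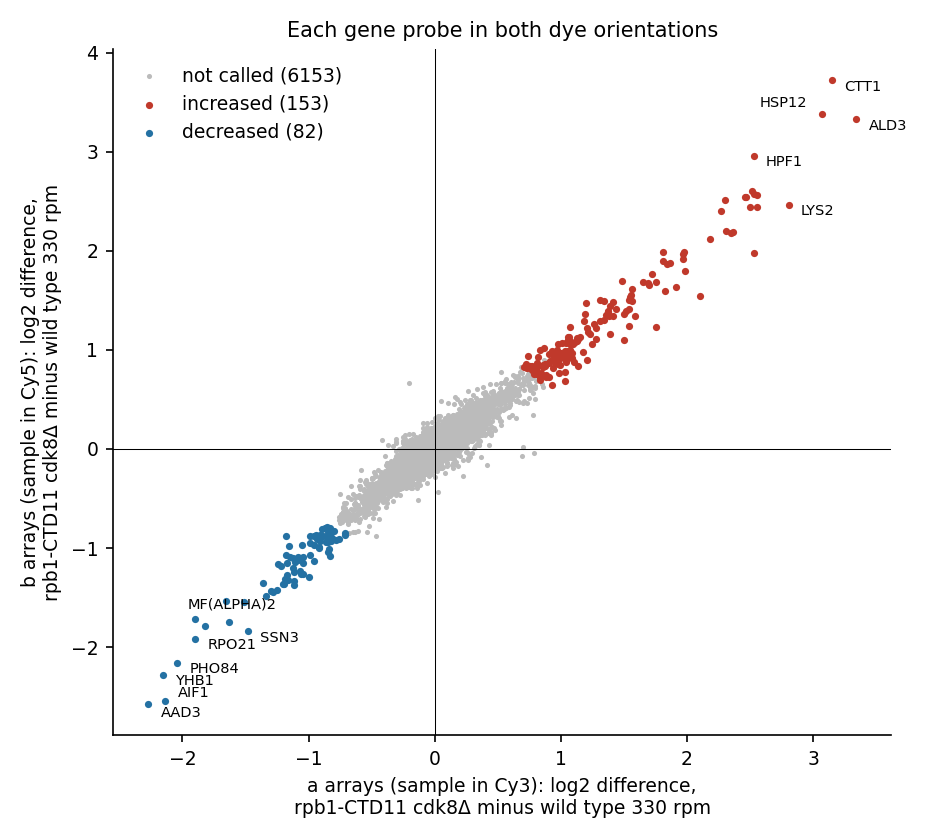
Log2 difference between *rpb1-CTD11 cdk8Δ* and wild type 330 rpm for each of the 6388 gene probes, on the a arrays (x axis, sample in Cy3) and on the b arrays (y axis, sample in Cy5). Red points are the 153 increased and blue points the 82 decreased probes, called on these same arrays and changed the same way in both dye orientations. *CTT1* lies farthest up, *ALD3* farthest right and *AAD3* farthest left and down.

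Stress genes led the increases. *CTT1*, the cytosolic catalase, had log2 ratios of 3.79 and 4.03 in *rpb1-CTD11 cdk8Δ*, against 0.64 and 0.31 in wild type 330 rpm. This was an increase of 10.8-fold (3.43 ± 0.30, adjusted p = 5.3e-08). *ALD3*, a stress-induced aldehyde dehydrogenase, had 3.80 and 3.50 in the double mutant and 0.46 and 0.17 in wild type 330 rpm (10.1-fold, 3.33 ± 0.30, adjusted p = 8.0e-08). *HSP12*, a small heat shock protein of membranes, had 3.86 and 4.17 against 0.79 and 0.79 (9.36-fold, 3.23 ± 0.32, adjusted p = 2.1e-07). Both mutant arrays lay far above both wild type 330 rpm arrays for each of these genes, which were picked for the size of this difference. Among all probes, the 2 groups did not overlap in 2812 (44%). *HSP26*, a small heat shock chaperone, had 3.90 and 3.69 in the double mutant, against 1.34 and 1.13 in wild type 330 rpm (2.56 ± 0.38), where it was already above the reference. Its change was 4.13 when set against the 8 other wild type arrays. Of the 15 named genes with the largest increases, 8 belonged to the list of general stress genes under Msn2 and Msn4. Among them were *MSC1* (2.55), *RTN2*, a reticulon-like protein (2.47), and *CYC7*, the cytochrome c isoform of low oxygen (2.41). The gene lists were drawn up with earlier results of these data known, so counts of their members describe the change and are no separate test.

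As a group, the general stress genes rose together. Of 30 measured, 28 were higher and none lower, and 24 were called increased. Over all probes 15.2% were higher and 2.4% increased. The median log2 fold change of the 30 genes was 1.59, with a range from -0.07 to 3.43, against 0.01 for all probes. The median of the group over the reference was 1.93 and 2.08 on the mutant arrays, and 0.46 and 0.40 on those of wild type 330 rpm. The same genes in wild type 330 rpm were only slightly above the 8 other wild type arrays, by a median of 0.20 with 2 of 30 higher. *MSN4*, which encodes one of the activators of these genes, was itself increased, at 1.5 and 1.49 against 0.29 and 0.27 (1.21 ± 0.09, adjusted p = 7.9e-09). In RNA from whole cultures, a larger share of cells with the stress program on and more of its mRNA in every cell cannot be told apart.

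Genes of the storage carbohydrates rose with them. Of 19 genes of trehalose and glycogen metabolism, 13 were higher and none lower, 11 were increased, and the median was 1.05. *GPH1*, glycogen phosphorylase, had 3.12 and 3.24 in *rpb1-CTD11 cdk8Δ* and 0.61 and 0.64 in wild type 330 rpm (5.89-fold, 2.56 ± 0.28, adjusted p = 8.5e-07). *TPS2*, the trehalose-6-phosphate phosphatase, had 2.18 and 1.94 against 0.62 and 0.45 (1.53 ± 0.15, adjusted p = 2.3e-07). Enzymes of synthesis and of breakdown both increased, with *GLC3*, the glycogen branching enzyme, at 1.08 ± 0.10 and *NTH1*, the neutral trehalase, at 1.05 ± 0.09. *GAC1*, a regulatory subunit of the phosphatase that acts on glycogen synthase, was higher but under the fold change threshold, at 0.59 ± 0.06. One of the 11 increased genes, the phosphoglucomutase gene *PGM2* (2.15), named after its value was seen, is also in the stress list.

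Nuclear genes for the mitochondrial respiratory chain and ATP synthase formed a second group, with smaller and more even changes. Of 34 genes, 33 were higher and none lower, the median was 0.68, and 9 passed the fold change threshold. The exception, *CYC1*, encodes the main cytochrome c and had 0.13 and -0.24 in *rpb1-CTD11 cdk8Δ* against 0.00 and -0.39 in wild type 330 rpm (0.14 ± 0.11, adjusted p = 0.35); it was named after its values were seen. *COX7*, a cytochrome c oxidase subunit, had 0.83 and 1.23 in the double mutant and -0.06 and 0.37 in wild type 330 rpm (0.87 ± 0.06, adjusted p = 2.7e-09). *QCR10* of the cytochrome bc1 complex, *ATP4* of ATP synthase and *COX9* were close to each other, at 0.74 ± 0.07, 0.67 ± 0.06 and 0.57 ± 0.05. Over the 14 alternatives the median of the 34 genes ranged from 0.339 to 0.739. *COX7* and *ATP4* each failed the adjusted p under 2 of them, and *QCR10* and *COX9* each under 1. *HAP4* had 1.41 and 1.44 in the double mutant, against 0.03 and 0.10 in wild type 330 rpm, an increase of 2.57-fold (1.36 ± 0.12, adjusted p = 5.0e-08). The median of the 34 genes over the reference was 0.77 and 0.76 on the mutant arrays and 0.04 and 0.14 on those of wild type 330 rpm. The tricarboxylic acid cycle and retrograde response genes did not follow as a group, with 5 of 20 higher, 4 lower and a median of -0.07. *MDH1*, mitochondrial malate dehydrogenase, was increased (0.84 ± 0.07), and *DLD3*, a D-lactate dehydrogenase of the retrograde response, was decreased (-0.83 ± 0.07).

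**Figure D2:**
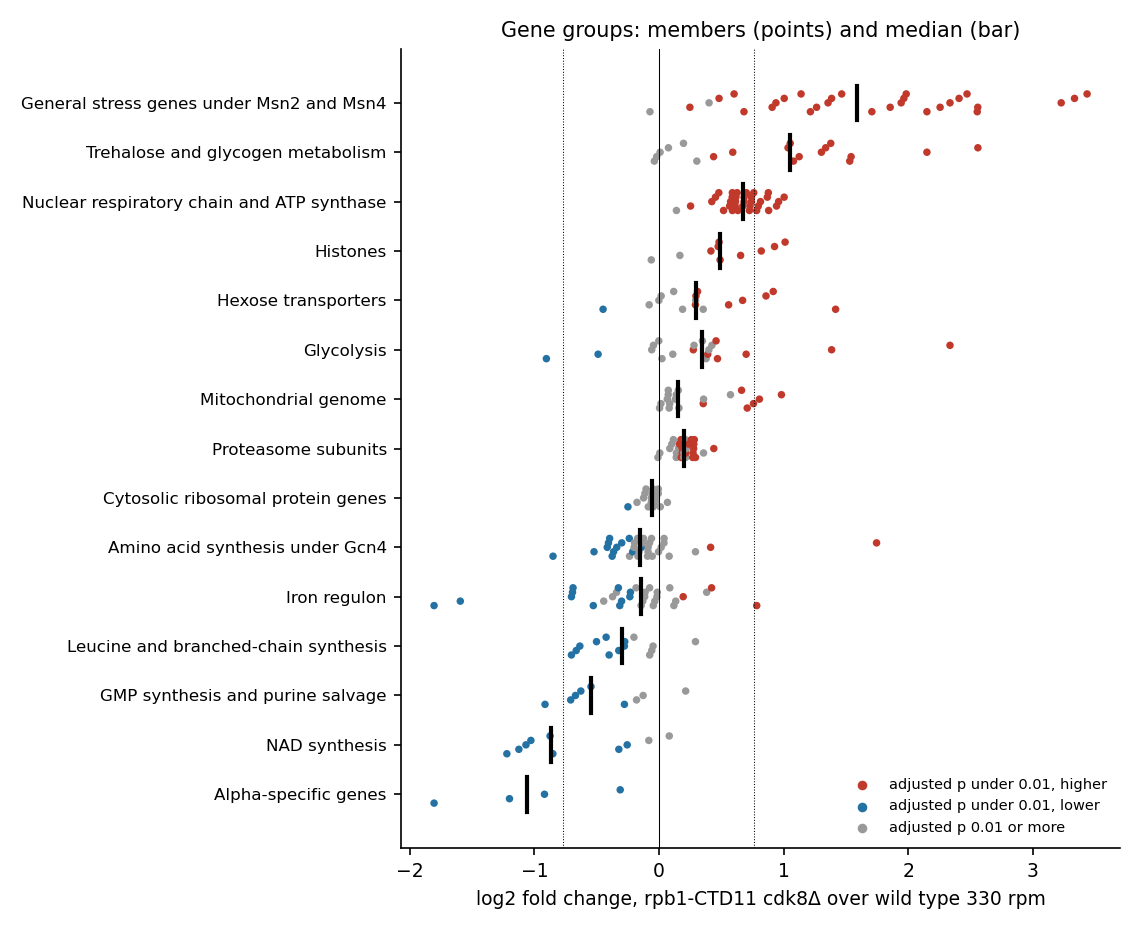
Log2 fold change of *rpb1-CTD11 cdk8Δ* over wild type 330 rpm for the members of 15 gene groups, 1 point a probe, with the group median as a black bar and the 1.7-fold threshold as dotted lines. General stress genes (median 1.59), trehalose and glycogen genes (1.05) and respiratory genes (0.68) lie mostly to the right, NAD synthesis (-0.86) and alpha-specific genes (-1.06) to the left; the proteasome median of 0.20 turns to -0.13 with spike-in centring.

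Sugar uptake and phosphorylation genes changed in both directions. *HXK1*, a hexokinase known to be repressed by glucose, had 2.88 and 3.08 in *rpb1-CTD11 cdk8Δ* and 0.61 and 0.69 in wild type 330 rpm (2.33 ± 0.33, adjusted p = 1.6e-05). *GLK1*, glucokinase, had 1.76 and 2.05 against 0.39 and 0.65 (1.38 ± 0.18, adjusted p = 6.6e-06). *HXK2*, the main hexokinase during growth on glucose, went the other way, at -1.02 and -0.73 against -0.08 and 0.13 (-0.90 ± 0.08, adjusted p = 3.9e-08). Over the 19 glycolysis genes 7 were higher and 2 lower, with a median of 0.35. Of 16 genes of hexose transport and its control, 8 were higher and 1 lower, with a median of 0.30 that fell to 0.00 with spike-in centring. *HXT6*, a high-affinity glucose transporter, was increased by 1.42 ± 0.09, although its near-identical neighbour *HXT7* may share its probe signal, and *HXT13* was increased by 0.92 ± 0.08. Of the 30 genes for other carbon sources that glucose represses, 4 were higher and 6 lower, and the median was -0.01. *ADR1*, an activator of several of them, was increased (0.84 ± 0.08), and *SUC2*, invertase, was lower at -0.74 ± 0.07.

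Core histone genes were higher in the double mutant. Of 10 histone genes 8 were higher and none lower, 3 were increased, and the median was 0.49. Over the 14 alternatives the median ranged from 0.212 to 0.635, and the 3 genes named below each failed the adjusted p under 1. *HHT1*, a histone H3 gene, had 1.03 and 0.94 in *rpb1-CTD11 cdk8Δ* and -0.01 and -0.04 in wild type 330 rpm (1.01 ± 0.07, adjusted p = 2.6e-09). *HHF1*, its histone H4 partner, rose by 0.93 ± 0.07 and *HHF2*, the other H4 gene, by 0.82 ± 0.09, and since the copies are nearly identical in sequence, the share of each is uncertain.

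Cell wall genes changed in both directions, and a minority of chaperone genes rose. *HPF1*, a large cell wall mannoprotein, had 2.66 and 3.07 in *rpb1-CTD11 cdk8Δ*, against 0.13 and 0.11 in wild type 330 rpm (6.7-fold, 2.74 ± 0.24, adjusted p = 5.2e-08). *SPI1*, a cell wall protein of stressed and stationary cells, had 3.05 and 3.03 against 0.49 and 0.59 (2.50 ± 0.22), and *YGP1* and *PIR3* were increased by 1.85 ± 0.14 and 1.07 ± 0.06. In the same list the seripauperins *PAU5* and *PAU1*, members of a family of near-identical genes, were lower at -0.70 ± 0.05 and -0.68 ± 0.05, and the list of 24 had a median of 0.08, or -0.09 with spike-in centring. Of 24 chaperone genes 6 were higher and none lower, with a median of 0.13, or -0.09 with spike-in centring. The increased chaperones were *HSP26* and 3 others, among them *HSP42* (1.26 ± 0.23) and *SSA4*, an inducible Hsp70 (1.08 ± 0.14). Other genes among the 15 largest increases were *FMP48* (2.27 ± 0.15), which encodes a mitochondrial protein, *RTC3* (2.50 ± 0.36) and *PHM7* (2.26 ± 0.21).

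*LYS2*, a lysine synthesis gene, had 2.70 and 2.38 in *rpb1-CTD11 cdk8Δ* and -0.10 and -0.08 in wild type 330 rpm (6.21-fold, 2.63 ± 0.16, adjusted p = 4.3e-10). *LYS2* is also a marker gene of this strain background, and *rpb1-CTD11* had 2.79 and 3.13. A difference in genotype at this marker and a change in its expression cannot be told apart. Of the 10 lysine genes, *LYS20* was the only other one increased (0.87 ± 0.09), and the median was 0.02. The remaining markers differed less, with log2 fold changes of 0.03 for *URA3*, -0.07 for *LEU2* and -0.48 for *HIS3*, of which the last was lower (adjusted p = 3.1e-05).

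**Figure D3:**
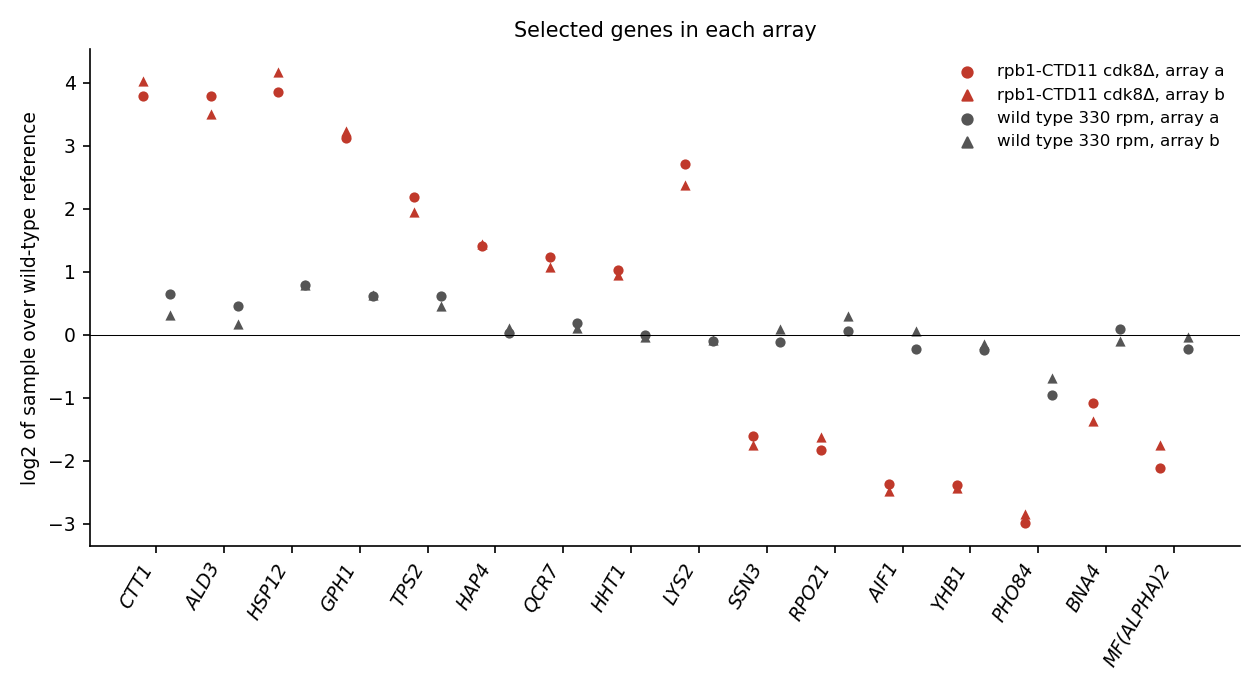
Log2 ratio of sample over the wild type reference for 16 selected genes, with *rpb1-CTD11 cdk8Δ* in red left of wild type 330 rpm in grey, circles for the a arrays and triangles for the b arrays. The 2 arrays of a group lie close together, *CTT1* stands at 3.79 and 4.03 against 0.64 and 0.31, and *PHO84* at -3.0 and -2.84 against -0.96 and -0.69.

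The genes with the largest decreases did not belong to 1 program. *AIF1*, the yeast relative of a mitochondrial cell death factor, had -2.37 and -2.49 in *rpb1-CTD11 cdk8Δ* and -0.24 and 0.05 in wild type 330 rpm, a 5.06-fold decrease (-2.34 ± 0.08, adjusted p = 2.2e-13). *YHB1*, the flavohemoglobin that detoxifies nitric oxide, had -2.39 and -2.43 against -0.24 and -0.15 (4.65-fold lower, -2.22 ± 0.15, adjusted p = 1.4e-09). *AAD3*, a putative aryl-alcohol dehydrogenase, had -2.32 and -3.09 against -0.05 and -0.52 (-2.42 ± 0.14, adjusted p = 2.3e-10). *AAD15* of the same family was decreased as well (-1.69 ± 0.11), and *AAD4* and *AAD14* were lower at -0.65 ± 0.06 and -0.53 ± 0.04. The *AAD* genes resemble each other closely, and their probes may share signal. *CHA1*, the enzyme that breaks down serine and threonine, had -1.30 and -1.51 against 0.21 and 0.03 (-1.53 ± 0.14, adjusted p = 1.1e-07). *YGL159W*, *COS5*, of a subtelomeric gene family, and *DCG1* were decreased by -1.41 ± 0.07, -1.36 ± 0.06 and -1.34 ± 0.10.

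*PHO84*, the high-affinity phosphate transporter, depended on the control. It had -3.0 and -2.84 in *rpb1-CTD11 cdk8Δ* and -0.96 and -0.69 in wild type 330 rpm, a change of -2.10 ± 0.23 (adjusted p = 9.9e-07). Wild type 330 rpm itself was 1.21 above the 8 other wild type arrays, against which the double mutant was -0.89. Among 17 phosphate starvation genes 10 were lower and 2 higher, with a median of -0.25, and *PHO12* and *VTC2* were lower at -0.59 ± 0.04 and -0.45 ± 0.06. The higher 2 included *PHM7*.

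NAD synthesis genes fell together. Of 10 genes 8 were lower and none higher, 6 were decreased, and the median was -0.86. *BNA4*, kynurenine 3-monooxygenase, had -1.08 and -1.37 in *rpb1-CTD11 cdk8Δ* and 0.09 and -0.10 in wild type 330 rpm (2.33-fold lower, -1.22 ± 0.05, adjusted p = 3.1e-12). *BNA5*, kynureninase of the same pathway from tryptophan, had -1.04 and -0.99 against -0.05 and 0.08 (-1.03 ± 0.05, adjusted p = 5.7e-11). Importers of NAD precursors fell alongside the enzymes. *NRT1*, the nicotinamide riboside transporter, changed by -1.07 ± 0.07 and *TNA1*, the nicotinic acid permease, by -0.87 ± 0.06.

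Genes that mark alpha cells were low in the double mutant. All 4 alpha-specific genes were lower, 3 were decreased, and the median was -1.06. *MF(ALPHA)2*, a gene for the alpha pheromone, had -2.12 and -1.76 in *rpb1-CTD11 cdk8Δ* and -0.22 and -0.04 in wild type 330 rpm (3.49-fold lower, -1.80 ± 0.20, adjusted p = 1.2e-06). *SAG1*, the alpha agglutinin, had -1.19 and -0.99 against 0.03 and 0.19 (-1.20 ± 0.17, adjusted p = 2.2e-05). *STE3*, the receptor for the a pheromone, was decreased by -0.92 ± 0.09, and *MF(ALPHA)1*, the main alpha pheromone gene, was lower by -0.31 ± 0.06. *MF(ALPHA)1* failed the adjusted p under 8 of 14 alternatives (log2 fold change -0.562 to -0.0491), among them the fits without the b array of either group. None of the 7 a-specific genes passed the adjusted p, and their median was 0.05. Their signals were dim, at 69.5 to 264 in the mutant and 74.7 to 317 in wild type 330 rpm. The empty-spot levels were 54.36 to 71.54, so these genes had little room to fall and are no contrast to the alpha-specific genes. Among 26 pheromone response genes 8 were lower and 5 higher, with a median of -0.16. *FUS3*, the kinase of the pheromone pathway, was at -0.73 ± 0.06 and its regulator *SST2* at -0.48 ± 0.06, whereas *PRM5* and *PRM10* were higher at 0.49 ± 0.07 and 0.39 ± 0.06. *STE12*, their activator, had -0.18 and -0.29 against 0.02 and -0.03 (-0.23 ± 0.08, adjusted p = 0.019).

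Within iron uptake, 2 of the 4 siderophore transporters were decreased. *ENB1*, the transporter of iron-enterobactin, had -1.56 and -1.41 in *rpb1-CTD11 cdk8Δ* and 0.26 and 0.38 in wild type 330 rpm (3.49-fold lower, -1.80 ± 0.13, adjusted p = 4.6e-09). *ARN2*, another siderophore transporter, had -1.41 and -0.99 against 0.25 and 0.54 (-1.59 ± 0.18, adjusted p = 1.5e-06). The other siderophore transporters, *ARN1* and *SIT1*, named after their values were seen, did not pass the test, at 0.09 ± 0.15 (adjusted p = 0.69) and -0.34 ± 0.19 (adjusted p = 0.16). Over the 31 genes of the iron regulon 11 were lower and 3 higher, with a median of -0.14, and *FRE2*, a ferric reductase, was higher at 0.42 ± 0.06.

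Several nucleotide, vitamin and amino acid genes were lower. Of 9 genes of GMP synthesis and purine salvage 6 were lower and none higher, with a median of -0.55. *IMD2*, an IMP dehydrogenase, had -0.89 and -1.19 in *rpb1-CTD11 cdk8Δ* against 0.06 and -0.32 in wild type 330 rpm (-0.91 ± 0.08, adjusted p = 6.3e-08), and its relatives *IMD3* and *IMD4*, which are similar in sequence, were at -0.71 ± 0.07 and -0.63 ± 0.08. *SHM2*, the serine hydroxymethyltransferase that feeds one-carbon units into purines, was decreased by -1.16 ± 0.08. The 18 vitamin B6 and thiamine genes had 9 lower and 2 higher, among them the decreased *SNZ3* (-0.93 ± 0.08), *THI20* (-0.85 ± 0.06) and *SNO2* (-0.79 ± 0.05) and the increased thiamine transporter *THI7* (0.77 ± 0.05). Leucine and branched-chain genes were lower in 9 of 14, with *ILV5* at -0.70 ± 0.11 and a median of -0.30. Amino acid synthesis genes under Gcn4 were lower in 12 of 34 and higher in 2, with a median of -0.15. In that list *ARO4* was decreased (-0.85 ± 0.07) and *SER3*, which starts serine synthesis, was increased, at 1.64 and 1.27 against -0.08 and -0.50 (1.75 ± 0.11, adjusted p = 9.5e-10). *GCN4* itself had -0.28 and 0.06 against 0.00 and 0.19 (-0.20 ± 0.08, adjusted p = 0.06).

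Single members of other lists were decreased. *PDR5*, the main multidrug efflux pump, had -0.55 and -0.54 in *rpb1-CTD11 cdk8Δ* and 0.57 and 0.56 in wild type 330 rpm (-1.11 ± 0.16, adjusted p = 1.6e-05). *OPI3*, of phosphatidylcholine synthesis, changed by -0.96 ± 0.09, *MET6*, methionine synthase, by -0.87 ± 0.06 and *BIO2*, biotin synthase, by -0.94 ± 0.16. The 6 biotin genes had a median of -0.54, with 2 lower. Against the 8 other wild type arrays all 6 were lower, with a median of -1.34, and wild type 330 rpm was itself lower than those arrays in all 6, with a median of -0.62. *INO1* of inositol synthesis was at -0.08 ± 0.11 (adjusted p = 0.63).

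The genes of the protein synthesis machinery moved little against wild type 330 rpm, but this depended on the control and the scale. None of 25 ribosome biogenesis genes passed the adjusted p (median -0.08), and of 17 cytosolic ribosomal protein genes *RPL3* alone did, at -0.25 ± 0.06 (median -0.06). Against the 8 other wild type arrays, 15 of the 25 (median -0.29) and 5 of the 17 (median -0.08) were lower and none higher. Over the alternatives the 2 medians fell as low as -0.394 and -0.303. Of 18 CTD kinases, phosphatases and binding factors, *PCF11*, a cleavage factor that binds the CTD, was higher by 0.19 ± 0.05, but at -0.08 with spike-in centring, and the median was 0.02. Proteasome subunits were slightly higher, 19 of 33 by the adjusted p with none increased and a median of 0.20, but with spike-in centring the median was -0.13. *RPN4* had 0.43 and 0.53 in the double mutant against -0.15 and -0.02 in wild type 330 rpm (0.56 ± 0.10, adjusted p = 1.1e-04). Its change ranged from 0.253 to 0.581 over the 14 alternatives and failed the adjusted p under 1.

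Transcripts of the mitochondrial genome depended on the control. Of 19 probes 6 were higher and none lower, with a median of 0.15. *OLI1*, an ATP synthase subunit, had 0.47 and 0.56 in *rpb1-CTD11 cdk8Δ* against -0.49 and -0.43 in wild type 330 rpm (0.98 ± 0.22, adjusted p = 0.0016). The *OLI1* change ranged from 0.195 to 1.04 over the 14 alternatives and failed the adjusted p under 7. Wild type 330 rpm was lower than the 8 other wild type arrays in 11 of the 19, with a median of -0.39. Set against those 8 arrays, the double mutant had a median of -0.10, with 3 lower and none higher. The medians of the nuclear chromosomes lay between -0.04 and 0.03.

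The comparison with *rpb1-CTD11* asks in which genes the double mutant differs from the strain that has the same truncation and keeps *CDK8*. Against *rpb1-CTD11*, 204 genes were increased in *rpb1-CTD11 cdk8Δ* (3.19% of the probes) and 146 decreased (2.29%), and 1257 (19.7%) and 1209 (18.9%) passed the adjusted p alone. This comparison shares the 2 double mutant arrays with the one against wild type 330 rpm, and values are given side by side without a count of shared genes.

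Proteasome genes stood lower in the double mutant than in the truncation alone. All 33 subunits were lower than in *rpb1-CTD11*, with a median of -0.57, and 5 were decreased. Their median over the reference was 0.16 and 0.18 on the arrays of *rpb1-CTD11 cdk8Δ*, 0.76 and 0.76 on those of *rpb1-CTD11* and -0.03 and -0.03 on those of wild type 330 rpm. *PRE2*, a catalytic subunit, had 0.21 and 0.15 in the double mutant against 0.73 and 0.78 in *rpb1-CTD11* (-0.57, adjusted p = 3.3e-09). For *RPN4* the arrays had 0.43 and 0.53 against 0.33 and 0.27 (0.18, adjusted p = 0.13). The ubiquitin and Cdc48 genes were lower in 14 of 17, with a median of -0.67 and *UBA1*, the ubiquitin-activating enzyme, at -0.78.

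Lists of amino acid, retrograde and drug resistance genes had more members lower than higher against *rpb1-CTD11*. Of the 34 amino acid synthesis genes under Gcn4, 24 were lower and 3 higher, with a median of -0.45. *ASN2*, asparagine synthetase, had -0.48 and -0.27 in *rpb1-CTD11 cdk8Δ* and 0.89 and 0.97 in *rpb1-CTD11* (-1.30, adjusted p = 4.1e-15). Of 20 tricarboxylic acid cycle and retrograde genes, 11 were lower and 5 higher, with a median of -0.26, and of 16 drug resistance genes 9 were lower and 2 higher, with a median of -0.24. *IDH1*, a subunit of mitochondrial isocitrate dehydrogenase, had -0.49 and -0.06 against 0.91 and 1.43 (-1.45, adjusted p = 1.1e-09). *DLD3* differed by -2.08, *PDR5* by -2.19 and *ATR1*, a drug efflux transporter, by -1.89. Against wild type 330 rpm the same 4 genes were at -0.43 for *IDH1*, -0.83 for *DLD3*, -1.11 for *PDR5* and -0.51 for *ATR1*. Against wild type 330 rpm *DLD3* and *PDR5* passed the adjusted p under all 14 alternatives. *ATR1* and *IDH1* were lower there but under the fold change threshold. *ATR1* failed the adjusted p under 3 alternatives (log2 fold change -0.77 to -0.503) and *IDH1* under 6 (-0.689 to -0.23). Those of *IDH1* included the fits without either array of *rpb1-CTD11 cdk8Δ* and without the b array of wild type 330 rpm. *YHB1*, at -2.39 and -2.43 in the double mutant, was raised in *rpb1-CTD11*, at 0.31 and 0.70 (-2.92). On the arrays of *rpb1-CTD11* 3 of 8 marker genes of the mitochondrial genome were above background, against 7 in the double mutant. The part of that low mitochondrial signal in these differences from *rpb1-CTD11* was not tested.

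**Figure D4:**
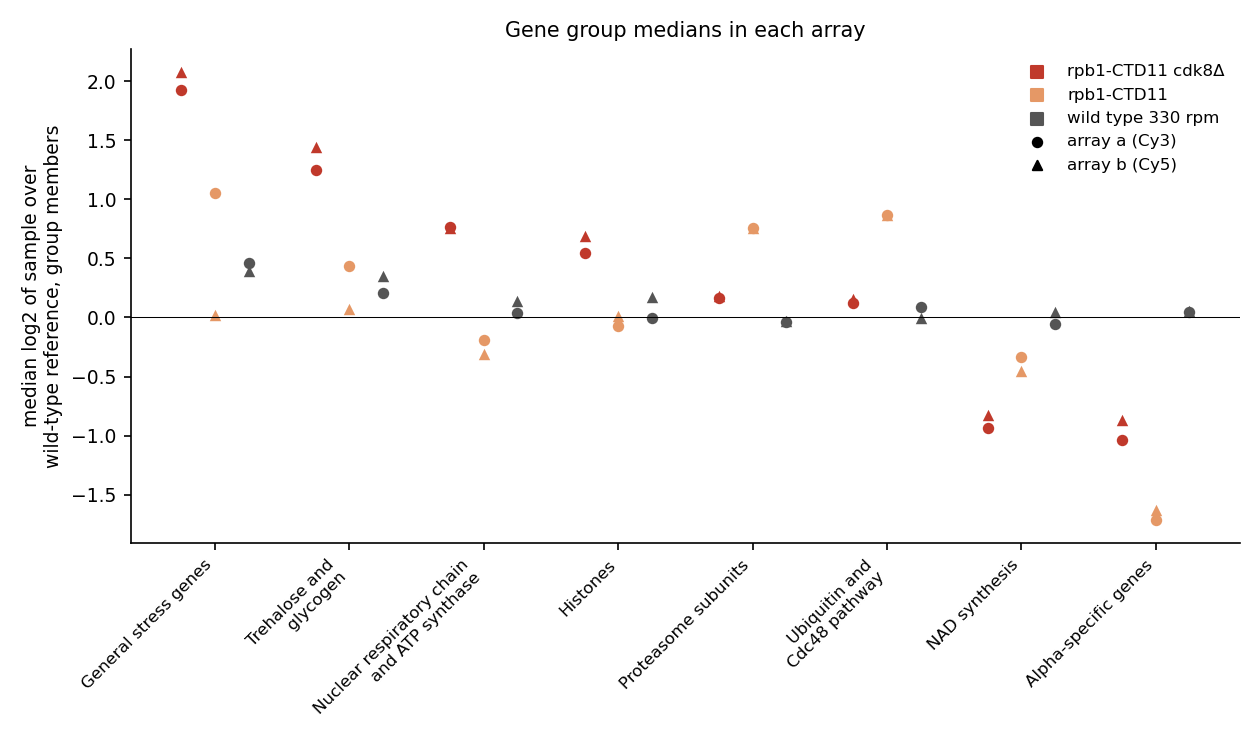
Median log2 ratio over the wild type reference of 8 gene groups on each array of *rpb1-CTD11 cdk8Δ* (red), *rpb1-CTD11* (orange) and wild type 330 rpm (grey), with circles for a and triangles for b arrays. The proteasome median is 0.16 and 0.18 in *rpb1-CTD11 cdk8Δ*, 0.76 and 0.76 in *rpb1-CTD11* and -0.03 and -0.03 in wild type 330 rpm, and the 2 *rpb1-CTD11* arrays lie apart for the stress genes, at 1.05 and 0.02.

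Stress genes were higher than in *rpb1-CTD11* in 25 of 30, with a median of 1.7, but the 2 arrays of *rpb1-CTD11* disagreed for these genes. Their median over the reference was 1.93 (a) and 2.08 (b) in *rpb1-CTD11 cdk8Δ*, against 1.05 (a) and 0.02 (b) in *rpb1-CTD11*. The median difference was therefore 1.09 between the a arrays and 2.01 between the b arrays. *CTT1* had 3.79 and 4.03 in the double mutant and 1.7 and 0.14 in *rpb1-CTD11*. The trehalose and glycogen genes showed the same split, with median differences of 0.58 (a) and 1.09 (b), and 15 of 19 were higher. Histone genes were higher in 9 of 10, with a median of 0.64.

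Respiratory genes were higher than in *rpb1-CTD11* in all 34, with a median of 1.03 and median differences of 1.03 (a) and 1.08 (b). In the same arrays 7 of 8 marker genes of the mitochondrial genome were above background in *rpb1-CTD11 cdk8Δ*, with summed signals of 3672 and 9842, against 3 of 8 and 503.3 and 799.6 in *rpb1-CTD11*. *OLI1* had 0.47 and 0.56 in the double mutant and -5.04 and -5.15 in *rpb1-CTD11*, a difference of 5.62. The part of this low mitochondrial signal in the respiratory result was not tested. Set against wild type 330 rpm, where 5 of the 8 markers were above background, the respiratory median was 0.68.

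Decreased groups differed in how they stood to *rpb1-CTD11*. The alpha-specific genes had medians over the reference of -1.03 and -0.87 in *rpb1-CTD11 cdk8Δ*, against -1.71 and -1.63 in *rpb1-CTD11*, and 3 of 4 were higher in the double mutant. *SAG1* had -1.19 and -0.99 in the double mutant and -2.19 and -2.20 in *rpb1-CTD11* (1.11, adjusted p = 3.3e-05), whereas *MF(ALPHA)2* had -2.12 and -1.76 against -2.30 and -2.04 (0.23, adjusted p = 0.36). NAD synthesis genes were lower than in *rpb1-CTD11* in 5 of 10 with a median of -0.16, led by *BNA4* (-0.73), while *BNA5* was low in both strains, at -1.04 and -0.99 against -1.17 and -1.06. *AIF1* had -2.37 and -2.49 in the double mutant against -0.17 and -0.04 in *rpb1-CTD11*, and *CHA1* had -1.30 and -1.51 against -0.09 and 0.09. *ARN2* was low in both, at -1.41 and -0.99 against -1.26 and -1.03. Of the 31 iron regulon genes 16 were higher than in *rpb1-CTD11* and 4 lower, with a median of 0.19. Over all probes 19.7% were higher and 18.9% lower in this comparison.

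The comparison with *rpb1-CTD12 cdk8Δ* asks whether 1 CTD repeat changes the profile of the double mutant. Against *rpb1-CTD12 cdk8Δ*, 3 probes were increased (0.047%) and 7 decreased (0.11%) in *rpb1-CTD11 cdk8Δ*. By the adjusted p alone, 5 probes were higher (0.0783%) and 43 lower (0.673%). Each double mutant was also set against the same 2 arrays of wild type 330 rpm, where the general stress median was 1.59 for *rpb1-CTD11 cdk8Δ* and 1.86 for *rpb1-CTD12 cdk8Δ*, and the respiratory median 0.68 and 0.53. Few calls do not show that the strains act alike.

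Among the named genes, the lowest adjusted p was at the asparaginase genes on chromosome XII. *ASP3-3*, a cell wall asparaginase of nitrogen starvation, had -1.60 and -1.58 in *rpb1-CTD11 cdk8Δ*, -0.11 and 0.02 in *rpb1-CTD12 cdk8Δ* and -0.30 and -0.15 in wild type 330 rpm (-1.55 between the double mutants, adjusted p = 1.2e-11). *YLR161W*, outside the rule for named genes and chosen after its values were seen, which lies beside the *ASP3* repeats in the RefSeq annotation R64, had -0.60 and -0.68 against 0.16 and 0.11 (-0.78, adjusted p = 4.4e-08). The 4 *ASP3* genes are near-identical copies in tandem, so the probe may measure all of them, and a change in their copy number and a change in expression cannot be told apart. *rpb1-CTD11* stood the other way at *ASP3-3*, at 0.94 and 0.92.

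The other named genes were *HPF1*, *BIO4*, *GRE1* and *MF(ALPHA)2*, and for each of these *rpb1-CTD12 cdk8Δ* lay on the same side of wild type 330 rpm. *HPF1* had 2.66 and 3.07 in *rpb1-CTD11 cdk8Δ* and 0.77 and 2.11 in *rpb1-CTD12 cdk8Δ* (1.43, adjusted p = 0.0037). *GRE1*, a stress-induced hydrophilin gene also chosen after its values were seen, had 1.65 and 1.57 against 2.53 and 2.30 (-0.80, adjusted p = 0.007). *MF(ALPHA)2* had -2.12 and -1.76 against -0.48 and -1.24 (-1.08, adjusted p = 0.0083), and *BIO4*, of biotin synthesis, -0.56 and -0.74 against -1.91 and -1.02 (0.82, adjusted p = 0.0086). For *HPF1*, *MF(ALPHA)2* and *BIO4* the 2 arrays of *rpb1-CTD12 cdk8Δ* themselves lay apart, and without its b array 10 genes were increased and 18 decreased, without its a array 0 and 4.

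**Figure D5:**
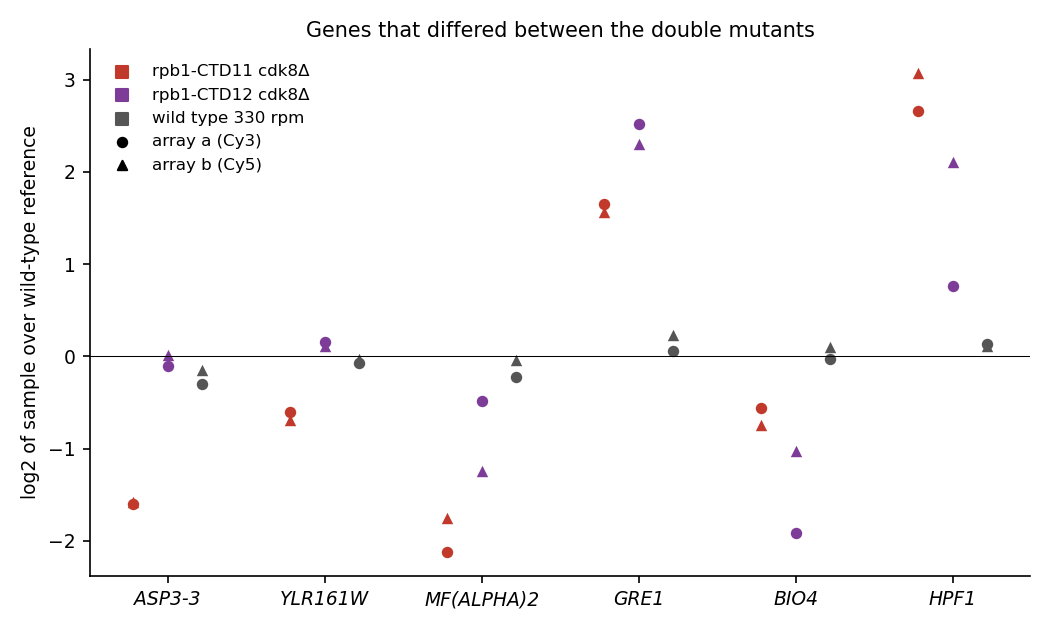
Log2 ratio of sample over the wild type reference on each array for the 6 named genes that differed between *rpb1-CTD11 cdk8Δ* (red) and *rpb1-CTD12 cdk8Δ* (purple), with wild type 330 rpm in grey, circles for a and triangles for b arrays. *ASP3-3* is at -1.60 and -1.58 in *rpb1-CTD11 cdk8Δ* and at -0.11 and 0.02 in *rpb1-CTD12 cdk8Δ*, and the 2 *rpb1-CTD12 cdk8Δ* arrays lie apart for *HPF1*, at 0.77 and 2.11.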

How the data were processed

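Expression was measured on dual-channel arrays, each with a strain's RNA in one dye and wild type reference RNA in the other. For every spot, intensities of signal and surrounding background were deposited as scanned, without normalization by the authors. A second deposited table gives the authors' log2 ratio of each spot after print-tip loess (span 0.4) and a dye-bias correction, without background subtraction, and served as an alternative. The authors' own fold changes and p values in a table of strains were left unused. The submitters' processing notes name limma 2.12.0.

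Here, intensities were background-corrected by normexp (offset 50) and normalized by global loess (span 0.3), and replicate spots were averaged. Above background means over percentile 99 of the empty spots. One limma model (version 3.58.1, R 4.3.3) held all 24 arrays, a coefficient for each group and a term for the dye, with Benjamini-Hochberg adjustment of p across the 6388 probes. The scripts were tested on simulated data. One gene name was available for 5326 probes, of which 5324 matched RefSeq, and none for 1062. Dyes followed the sample labels, which differ from the design text of the deposit, and all arrays then correlated positively with the authors' log2 ratios. In each group of 2 arrays the letter stands for both dye and replicate number, and same-lettered arrays deviated together (correlation of b minus a between both groups 0.927), so the dye term is also the replicate block. Precision is limited by the number of arrays. The genome build is not given in the sources used here.

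The rule for named genes took the 15 named probes with the largest called change in each direction, up to 4 members of each of 49 gene lists by lowest p, all members of the Cdk8 module and strain marker lists, and genes the paper's text names. The members and lists were chosen with earlier results of these data known. The alternatives changed the background correction, the normalization (print-tip loess, median or spike-in centring), the source of values, saturated spots, the dye term, the filter on dim probes, the arrays fitted, the control or the fold change threshold, or left out 1 array.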

Additional observations from a re-analysis of the deposited data

Results flagged for a closer look

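The 2 double mutants differed in 10 probes by the test of the difference itself. On the log2 scale, *rpb1-CTD11 cdk8Δ* minus *rpb1-CTD12 cdk8Δ* was -1.55 for *ASP3-3*, -0.776 for *YLR161W*, -1.08 for *MF(ALPHA)2*, -0.8 for *GRE1*, 0.817 for *BIO4* and 1.43 for *HPF1*. Of 4 probes with no gene name, 3 differed by -1.57, -1.44 and -1.42 and 1 by 1.08. *ASP3-3* and the 3 unnamed probes that were lower passed the threshold under all 13 alternatives, *YLR161W* under 10, *HPF1* and *MF(ALPHA)2* under 7, and *BIO4*, *GRE1* and the unnamed probe that was higher under 6. The 3 unnamed probes that were lower were also lower in *rpb1-CTD11 cdk8Δ* than in wild type 330 rpm, by -1.36, -1.28 and -1.22, and stood at 0.21, 0.16 and 0.20 in *rpb1-CTD12 cdk8Δ* over the same wild type arrays.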

How the results depend on the processing

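Against wild type 330 rpm, the 153 increased and 82 decreased genes became 82 and 177 with spike-in centring and 972 and 844 with no fold change threshold. All 82 of the increased and all 82 of the original decreased genes were shared with the spike-in result. Leaving out each array gave 144 to 153 and 80 to 85. Against *rpb1-CTD11*, no fold change threshold gave 1257 and 1209, and leaving out each array 181 to 248 and 142 to 148. Without the replicate block, which is the dye term, the counts were 141 and 79 against wild type 330 rpm, 195 and 140 against *rpb1-CTD11*, and 0 and 5 against *rpb1-CTD12 cdk8Δ*.

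Against *rpb1-CTD12 cdk8Δ*, the 3 increased and 7 decreased genes became 0 and 4 with median centring, 0 and 4 with only the 4 arrays compared, 1 increased with spike-in centring, and 5 and 43 with no fold change threshold. Leaving out each array gave 0 to 10 and 4 to 18, with 10 and 18 without the b array of *rpb1-CTD12 cdk8Δ* and 0 and 4 without its a array. The cause of these shifts was not tested.

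Of 218 named probes, 184 passed the adjusted p and 75 of these kept their side and direction under all 14 alternatives. Of 3049 pairs of probe and alternative, 13 turned direction where the adjusted p was passed before or after the change, and changes of sign among values that passed neither time were not counted. The turned values were, with the 8 wild type arrays as control, *AI2* (-0.17), *AI3* (-0.10), *AI4* (-0.10) and *ZRT1* (-0.33). With spike-in centring the turned values were *EKI1* (-0.052), *LYS9* (-0.053), *PCF11* (-0.079), *PRE2* (-0.10), *PRE7* (-0.014), *RPB4* (-0.022), *RPN3* (-0.16), *SPT23* (-0.0051) and *UFD4* (-0.022). The list medians of stress genes ranged from 1.39 to 1.82 over the alternatives, of respiratory genes from 0.339 to 0.739, of NAD synthesis from -1.15 to -0.831 and of proteasome genes from -0.132 to 0.284. Against *rpb1-CTD11* the proteasome median ranged from -0.634 to -0.573, the respiratory median from 0.97 to 1.15 and the stress median from 1.08 to 2.11. Probes near background give only bounds, as for *SSN3*.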

Other observations

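Some called genes lay outside the gene lists and were chosen after their values were seen. *INH1* and *STF1*, inhibitors of the mitochondrial ATPase, had log2 ratios of 1.56 and 1.31 and of 1.55 and 1.16 in *rpb1-CTD11 cdk8Δ*, against 0.18 and 0.15 and 0.53 and 0.24 in wild type 330 rpm, and increased by 1.27 ± 0.13 and 0.97 ± 0.13. The 2 porin genes of the mitochondrial outer membrane went opposite ways. *POR1*, the major porin, had 1.02 and 1.21 in the double mutant and -0.04 and 0.29 in wild type 330 rpm (0.99 ± 0.12), and *POR2* had -0.97 and -1.0 against -0.11 and -0.06 (-0.90 ± 0.06). *MCR1*, a mitochondrial cytochrome b5 reductase, was increased by 1.67 ± 0.14.

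Of the pyrimidine genes, *URA1*, dihydroorotate dehydrogenase, and *URA4*, dihydroorotase, were decreased by -1.07 ± 0.12 and -0.93 ± 0.08, while *URA2*, the first enzyme, was at -0.19 ± 0.07 (adjusted p = 0.04). In glycine cleavage *GCV2* was decreased, at -0.84 and -1.28 in *rpb1-CTD11 cdk8Δ* against 0.22 and -0.02 in wild type 330 rpm (-1.16 ± 0.11), and *GCV1* and *GCV3* were lower at -0.62 ± 0.14 and -0.48 ± 0.09. *GSC2*, a glucan synthase subunit of the cell wall, and *PTR2*, a peptide transporter, were increased by 1.52 ± 0.12 and 1.32 ± 0.11. *CUP1-2*, a metallothionein gene present in copies, was decreased by -1.20 ± 0.13.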
